A study of Mus musculus with 11 samples.

Results

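The 9 transcription factor genes described here, Atoh1, Pou4f3, Gfi1, Lhx3, Barhl1, Insm1, Hes6, Rfx3 and Ikzf2, encode regulators of hair cell fate and maturation in the cochlea. They were chosen by gene symbol from the 20276 named genes of a mouse expression array, and 13 of its 55681 probes measured them. Probes were named through the RefSeq transcript they were designed for, and all 13 passed the filter on dim probes. Barhl1 and Ikzf2 had 2 probes each, Rfx3 had 3, and the other 6 genes had 1. For a gene with several probes, the brightest is the main probe (probe 1) and the others are given beside it.

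Hair cells are the mechanosensory cells of the inner ear, and they arise together with supporting cells from a common prosensory domain. Atoh1, a basic helix-loop-helix activator, starts the hair cell program, and Notch signaling holds it down in neighbouring cells through Hes and Hey repressors. Pou4f3, a POU homeodomain factor, and Gfi1, a zinc-finger repressor, act after Atoh1 and are needed for the survival of the new hair cells.

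Otospheres are floating spheres grown from dissociated cochlear cells, and the study compared their RNA with that of the tissue they came from and of pluripotent cells, on 11 single-colour Agilent arrays. The 6 otosphere arrays (OS1 to OS6) held secondary otospheres after passage 1, grown from the cochlear sensory epithelium (CSE) of ICR mice on postnatal day 1, with 10 mice and 20 cochleae per preparation. Cells were cultured for 4 to 5 days before and again after the passage, in medium with bFGF, IGF1 and heparan sulfate. Before RNA isolation the otospheres were passed through a cell strainer to keep the solid spheres and leave out the larger hollow ones. The 3 CSE arrays (CSE1 to CSE3) held dissected epithelium of ICR mice of the same age without culture. Dissociation, culture, passage and this selection of spheres therefore cannot be told apart as sources of a difference between otospheres and CSE. The 2 embryonic stem cell (ESC) arrays held the lines G4-2 (ES1) and D3 (ES2) at passage 13, so that line and replicate coincide in that group. The labels name no transgene or mutation in any group. Either 50 or 100 ng of RNA was labelled, and which sample had which amount was not given in the sources used here.

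The first slide held ES1, OS1-3, CSE1 and CSE2, and the second held ES2, OS4-6 and CSE3. Among bright probes, OS1 and OS2 differed by 0.849 times the noise between spots of the same probe, and OS4 and OS5 by 0.370 times, while all other pairs within a group differed by at least 1.49 times. Each of these pairs was counted as 1 sample, written OS1-2 and OS4-5, which left 4 otosphere, 3 CSE and 2 ESC samples. Nothing in the labels ties the arrays to separate cultures or animals, so p-values measure the spread between these samples, which may be technical. Between 55.1% and 71.6% of the spots of an array were well above background, and 0 were saturated. The labels were checked against defining markers. Myo7a, the unconventional myosin that defines hair cells, was at 10.24, 10.48 and 10.68 on the log2 scale in CSE1, CSE2 and CSE3. In ES1 and ES2 it was at 8.08 and 7.52. Pou5f1, a defining gene of pluripotent cells, was at 14.02 and 14.27 on the log2 scale in ES1 and ES2 and between 5.25 and 5.56 in the CSE samples. Nanog, another pluripotency gene, went the other way by its brightest probe. That probe was at 8.50 and 8.26 in ES1 and ES2 and between 9.41 and 10.34 in the CSE samples, and the cause was not tested. The study, which also used ESC arrays from other series, lists Nanog among the genes raised only in ESCs. This 1 probe is therefore not taken as the level of the gene, and other Nanog probes are not given here. Levels are normalized log2 intensities throughout, which compare samples for 1 probe but not 1 gene with another.

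The promoters of Atoh1 and Hes6 are shown because Atoh1 is the target of the Hes and Hey repressors described below and Hes6 is a member of the Hes family that was lower in otospheres. Each is the 250 bases before the annotated start, 5′ to 3′, from RefSeq (GRCm38.p6), with matches to the searched motifs in capitals. The Atoh1 window is chr6:64728875-64729124 (plus strand) and the Hes6 window is chr1:91414039-91414288 (minus strand).
Atoh1: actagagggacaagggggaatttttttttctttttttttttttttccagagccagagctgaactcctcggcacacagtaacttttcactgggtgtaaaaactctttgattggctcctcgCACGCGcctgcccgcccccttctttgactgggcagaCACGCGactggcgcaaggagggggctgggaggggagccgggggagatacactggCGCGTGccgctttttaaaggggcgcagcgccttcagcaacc
Hes6: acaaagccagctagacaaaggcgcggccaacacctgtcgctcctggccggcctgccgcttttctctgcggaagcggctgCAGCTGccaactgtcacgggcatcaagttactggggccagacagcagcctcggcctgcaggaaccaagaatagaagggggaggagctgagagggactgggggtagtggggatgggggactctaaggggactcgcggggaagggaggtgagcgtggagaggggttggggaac
The motifs searched on both strands were CAGCTG and CAGATG (E-boxes of the kind Atoh1 binds), CACGCG and CACGTG (sites of the kind Hes and Hey proteins bind), TAAATCAC (Gfi1) and GTTGCC (a half-site of the Rfx proteins). The Atoh1 window held 3 matches to CACGCG, starting 131, 95 and 41 bases before the start, the last on the other strand. Of 32851 promoter windows of the same length, 7.62% held at least 1 match to CACGCG and 0.225% held 3 or more. The Hes6 window held 1 match to CAGCTG, 171 bases before the start, and 13% of all windows held that motif. The windows of Gfi1 and Lhx3 held no match to any of these motifs. A match is a description of the sequence only.

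Compared with the CSE, otospheres had lower levels of 4 of the 9 genes, Atoh1, Lhx3, Insm1 and Hes6, and no member was higher, also at an unadjusted p under 0.05 (limma with Benjamini-Hochberg adjustment over 47997 probes, threshold 0.05). Over all probes tested, 6.19% were lower and 4.84% higher in otospheres by the same rule. The median log2 difference over the 9 main probes was -1.91, against 0.02 over all kept probes. Pou4f3 and Gfi1 were below the CSE in every otosphere sample but did not pass. With the slide as a block in the fit, both passed and the count of lower members was 6, where 6.55% of all probes were lower by that fit. Counting samples that do not overlap, 6 members lay lower in every otosphere sample than in every CSE sample, and 12.7% of all probes did so. The arrays measured whole spheres and whole tissue, so that fewer cells of a type and less RNA per cell cannot be told apart.

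**Figure D1:**
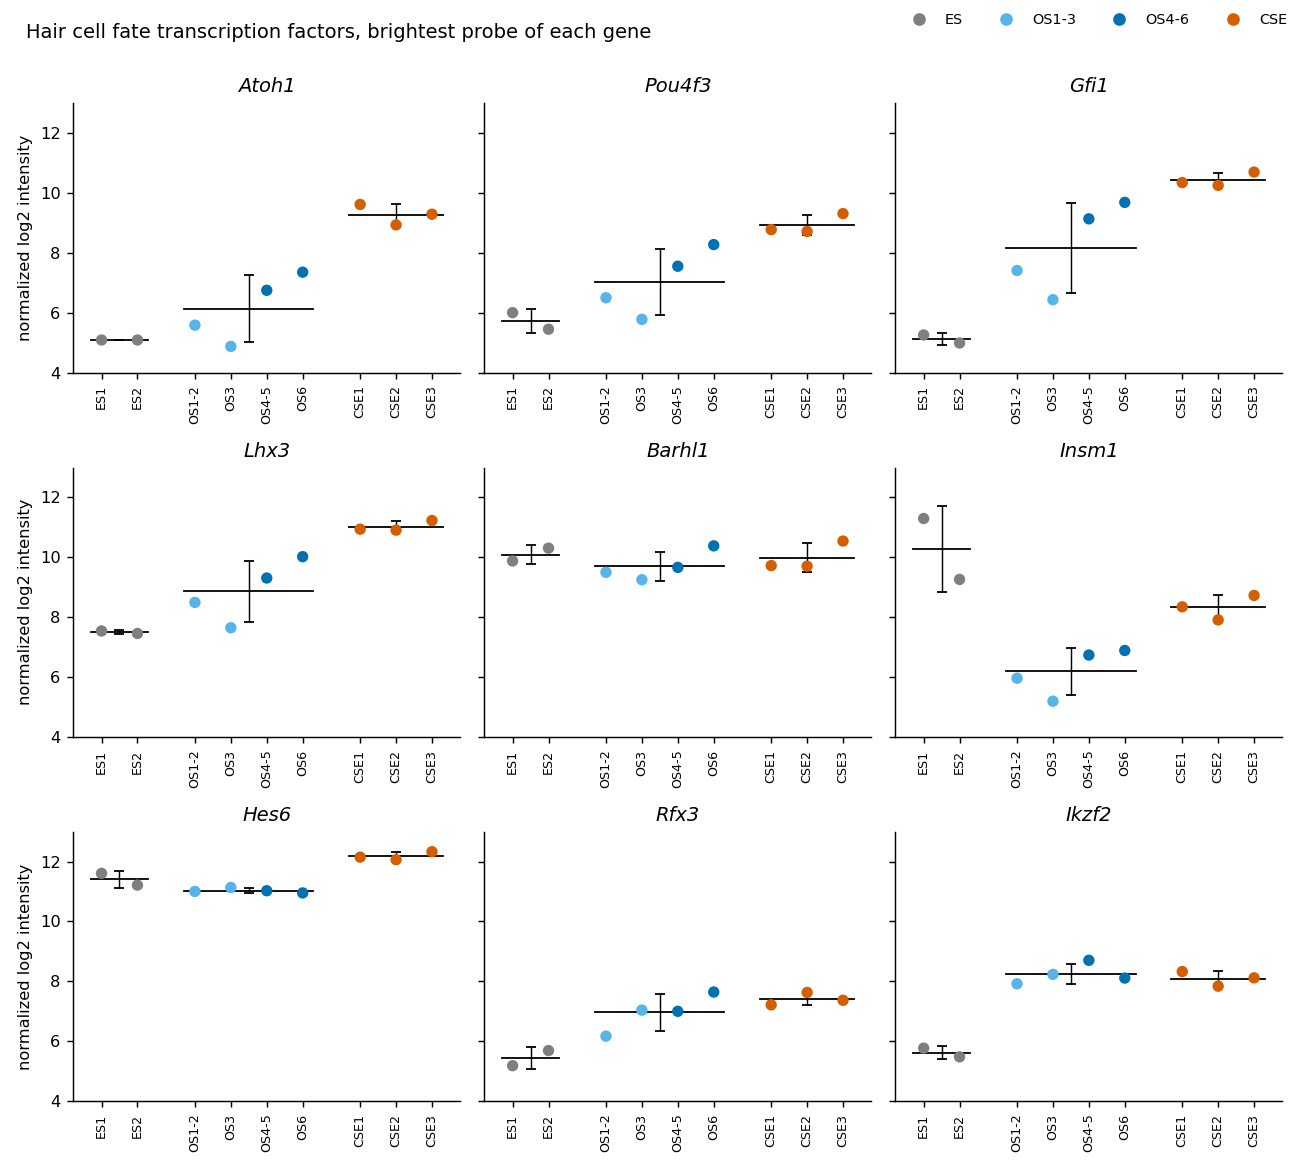
Normalized log2 intensity of the brightest probe of each of the 9 genes (y axis) in the 9 samples (x axis), grey for ESCs, light blue for otospheres of the first slide, dark blue for otospheres of the second slide and orange for CSE. Lines are group means and bars are SDs. Atoh1, Pou4f3, Gfi1, Lhx3 and Insm1 lie below the CSE in all 4 otosphere samples and higher in OS4-5 and OS6 than in OS1-2 and OS3, while Ikzf2 lies at a similar level in otospheres and CSE.

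Atoh1 (chr6:64729125-64731245) showed the widest gap between the CSE and the otospheres among the main probes. Its log2 level was 9.62, 8.94 and 9.30 in CSE1, CSE2 and CSE3. In the otospheres it was 5.59 in OS1-2, 4.88 in OS3, 6.75 in OS4-5 and 7.36 in OS6. Every otosphere sample was below every CSE sample, and the signal on the array OS3 was not well above background. Otospheres were 8.82-fold lower on average (log2 difference -3.14, SE 0.53, adjusted p = 0.00595). Within the first slide the difference was -4.05 and within the second -2.24, both on the log2 scale.

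Pou4f3 showed the same order of otosphere samples. It was at 8.78, 8.72 and 9.32 in the CSE samples and at 6.50, 5.78, 7.56 and 8.28 in OS1-2, OS3, OS4-5 and OS6. OS6 came nearest to the CSE, and the groups did not overlap. The log2 difference of -1.91 (SE 0.53) did not pass at the limma fit's adjusted p = 0.0538, and with a slide block it was -2.05 (adjusted p = 0.0243). Without OS6 it also passed, at -2.32 (adjusted p = 0.0139). With the scanner's processed signal scaled to its 75th percentile it did not (limma, adjusted p = 0.0899). Of 21 alternatives, Pou4f3 passed in 5 and did not in 16.

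Gfi1 (chr5:107716655-107725805) had levels of 10.35, 10.26 and 10.704 in the CSE and of 7.42, 6.44, 9.14 and 9.69 in OS1-2, OS3, OS4-5 and OS6. The otosphere samples spread more widely than for any other member, and none reached the CSE. The log2 difference from the CSE was -2.27 (SE 0.69, adjusted p = 0.0741 by limma), and -2.47 with a slide block (adjusted p = 0.0269). Without OS6 it was -2.77 (adjusted p = 0.0243). With the scanner's processed signal scaled to its 75th percentile it did not pass (limma, adjusted p = 0.101). Of 21 alternatives, Gfi1 passed in 6 and did not in 15. Within the first slide the difference was -3.38 and within the second -1.29.

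Among the homeodomain factors of maturing hair cells, Lhx3 (chr2:26200212-26208249), a LIM homeodomain protein also known from the pituitary and motor neurons, was at 10.94, 10.91 and 11.23 in the CSE. It was at 8.49, 7.65, 9.31 and 10.02 in OS1-2, OS3, OS4-5 and OS6, again with no overlap. Otospheres were 4.47-fold lower (log2 difference -2.16, SE 0.48, adjusted p = 0.0213 by limma). This call was lost when OS1-2 or any 1 of the CSE samples was left out, where adjusted p reached 0.0862 and the difference stayed between -2.06 and -2.22 without a CSE sample.

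Barhl1 (chr2:28907680-28917984), a BarH-like homeodomain factor needed for the long-term survival of hair cells, gave different readings with its 2 probes, although both were designed for the same transcript. Probe 1 was at 9.72, 9.70 and 10.54 in the CSE and at 9.50, 9.25, 9.66 and 10.38 in OS1-2, OS3, OS4-5 and OS6, and it was as high in the ESCs (9.88 and 10.31). The groups overlapped, and limma's F-test did not separate the 3 groups (adjusted p = 0.638). Probe 2 was at 9.26, 9.41 and 10.18 in the CSE, at 6.25, 5.08, 7.66 and 7.96 in the same otosphere samples, and at 4.83 and 5.19 in the ESCs. By probe 2 the otospheres were 7.36-fold lower than the CSE (log2 difference -2.88, SE 0.64, adjusted p = 0.0209). Over the 9 samples, probe 2 had a Pearson r of 0.993 with Lhx3 and 0.983 with Pou4f3, against 0.333 with probe 1, values that rest largely on the distances between the 3 groups. Which probe reads the transcript was not tested, and Barhl1 is counted by probe 1 as the rule requires.

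Insm1 (chr2:146221997-146225020) and Hes6 (chr1:91411483-91414038) are expressed in young hair cells and in developing neurons. Insm1, a zinc-finger factor that shapes outer hair cell identity, was at 8.35, 7.91 and 8.73 in the CSE and at 5.96, 5.19, 6.74 and 6.89 in OS1-2, OS3, OS4-5 and OS6. All otosphere samples were lower (log2 difference -2.13, SE 0.54, adjusted p = 0.0379 by limma), and OS3 was not well above background. The call was lost without any 1 of the CSE samples or without OS1-2, OS3 or OS4-5, with adjusted p up to 0.141. It was also lost with an offset of 50 in the background correction (limma, adjusted p = 0.0613). With the scanner's processed signal scaled to its 75th percentile it was lost as well (adjusted p = 0.0649). Of 21 alternatives, Insm1 passed in 12 and did not in 9. Hes6 was at 12.15, 12.06 and 12.33 in the CSE and at 11.003, 11.14, 11.03 and 10.95 in the otosphere samples. It was the most even member among otospheres (SD 0.08, n = 4) and was 2.22-fold lower than in the CSE (log2 difference -1.15, SE 0.16, adjusted p = 0.0021). Of 15 neuronal markers, 11 were also lower in otospheres than in the CSE and none higher. Their mean log2 level was 7.16 to 7.56 in otospheres against 9.91 to 10.90 in the CSE. Elavl3 and Neurod1 had no otosphere array well above background. Elavl3 was well above background on 3 CSE arrays. Neurod1 was so on only 1 CSE array, and its log2 difference from the CSE of -0.11 did not pass (limma, adjusted p = 0.867). The part of the neuronal markers in the results for Insm1 and Hes6 was not tested.

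Rfx3 (chr19:27761721-28014669) and Ikzf2 (chr1:69531207-69687351) made a separate pair. Rfx3, a winged-helix factor of ciliogenesis that acts in hair cell maturation, was at 7.22, 7.63 and 7.37 in the CSE and at 6.17, 7.04, 6.999 and 7.64 in OS1-2, OS3, OS4-5 and OS6. The groups overlapped, with a log2 difference of -0.44 and a 95% interval from -1.17 to 0.29. Ikzf2, which encodes the zinc-finger factor helios of maturing outer hair cells, was at 8.33, 7.84 and 8.12 in the CSE and at 7.92, 8.23, 8.70 and 8.11 in the otosphere samples. The groups overlapped here too, with a log2 difference of 0.15 and a 95% interval from -0.35 to 0.65. The other probe of Ikzf2 gave 0.50, and the other probes of Rfx3 gave -0.18 and -0.06, none of which passed.

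**Figure D2:**
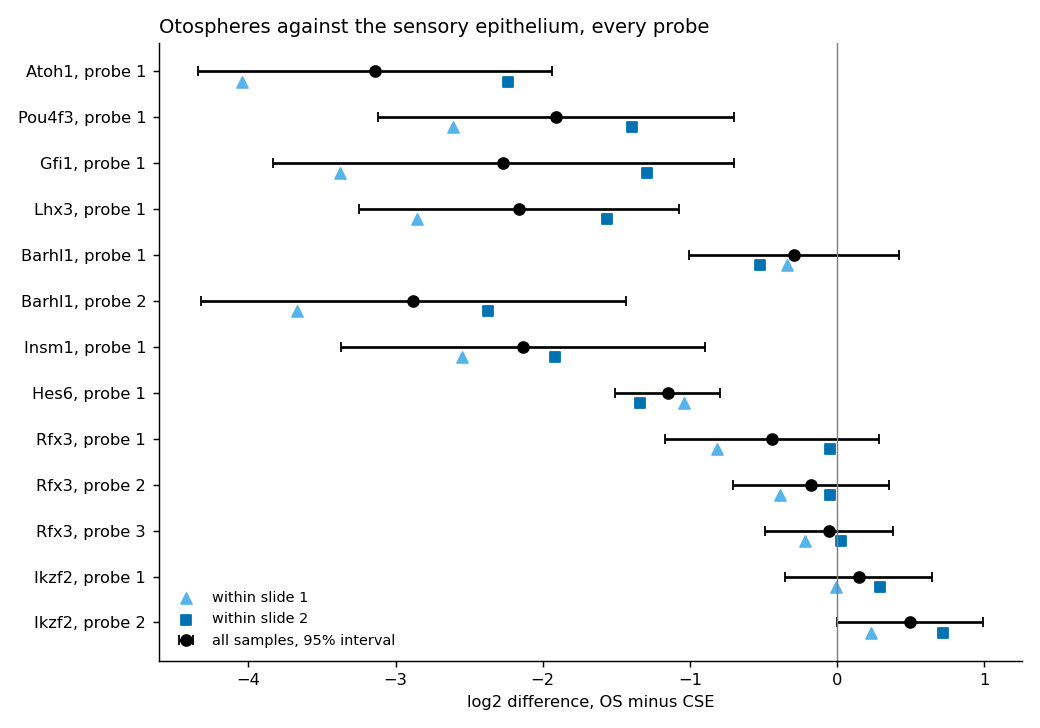
Log2 difference between otospheres and CSE (x axis) for each of the 13 probes (y axis), as the estimate over all samples with its 95% interval (black), within the first slide (light blue triangles) and within the second (dark blue squares). Probes of Atoh1, Pou4f3, Gfi1, Lhx3 and Insm1 and probe 2 of Barhl1 lie below 0 on both slides and nearer 0 on the second, from -4.05 and -2.24 for Atoh1 to -2.55 and -1.91 for Insm1, and Hes6 lies at -1.04 and -1.34.

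Against the ESCs, 7 of the 9 genes were higher in the CSE and none was lower (adjusted p under 0.05), where 13.2% of all probes were higher and 15.6% lower by the same rule. Insm1 was lower at an unadjusted p under 0.05. The median log2 difference over the members was 2.47, against -0.06 over all kept probes. Atoh1 and Gfi1 were not well above background on either ESC array, so that the difference is a bound, at least 15.0-fold for Atoh1 and at least 33.0-fold for Gfi1 in the CSE (adjusted p = 0.00123 and 0.00143 by limma). Each bound sets the mean of the brighter group against the lowest signal among probes well above background on each ESC array. Where the gene's own signal on that array was higher, its own signal was used. A probe can exceed that lowest signal and still not be well above background, so the bounds are approximate. Pou4f3 was at 6.01 and 5.45 in ES1 and ES2, well above background on 1 of the 2 arrays, and was 9.25-fold higher in the CSE (adjusted p = 0.00513). Lhx3 was at 7.54 and 7.45 in the ESCs and 11.5-fold higher in the CSE (adjusted p = 0.00179). Hes6 was 1.71-fold higher (adjusted p = 0.0135), and that call was lost without ES2 (adjusted p = 0.0842). With the scanner's processed signal scaled to its 75th percentile Hes6 was at 0.18 (adjusted p = 0.738) on the log2 scale, and the count of members higher in the CSE was 6.

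In otospheres, 4 members differed from the ESCs, 3 higher and 1 lower, where 27.7% of all probes differed, 12.1% higher and 15.6% lower. The median log2 difference was 1.30, against -0.03 over all kept probes. Ikzf2 was at 5.77 and 5.48 in the ESCs, below every otosphere and CSE sample. It was 6.14-fold higher in otospheres (log2 difference 2.62, SE 0.25, adjusted p = 0.000115) and 5.55-fold higher in the CSE. Gfi1 was at least 6.86-fold higher in otospheres than in the ESCs (adjusted p = 0.0183), and the call was lost without either ESC sample (adjusted p up to 0.0933). Rfx3 was not well above background in the ESCs (5.18 and 5.69) and was at least 2.83-fold higher in otospheres (adjusted p = 0.0126), while its probe 2 gave a log2 difference of -0.18 that did not pass. Rfx3 lost the call without ES1, at adjusted p = 0.0953. Atoh1 was not well above background in the ESCs (5.09 in ES1 and in ES2), and the otosphere samples overlapped them. OS3, at 4.88 and also not well above background, lay below both ESC samples. No minimum fold is therefore given for Atoh1, and its log2 difference of 1.05 did not pass (adjusted p = 0.243). Pou4f3 (log2 difference 1.30, adjusted p = 0.152) and Lhx3 (1.37, adjusted p = 0.0974) did not pass either. Without OS3, Pou4f3 at 1.72 (adjusted p = 0.0332) and Lhx3 at 1.78 (adjusted p = 0.0123) did pass.

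Insm1 ran the other way. It was at 11.30 in ES1 and 9.26 in ES2, above all otosphere and CSE samples, and was 17-fold lower in otospheres (log2 difference -4.08, SE 0.62, adjusted p = 0.00124). The CSE lay between, at a log2 difference of -1.95 from the ESCs that did not pass (adjusted p = 0.0524) but did without ES2 (adjusted p = 0.0118) or without OS3 (adjusted p = 0.0368). Without ES1 the difference was -0.93 (adjusted p = 0.358). ES2 minus ES1 was -2.03 on the log2 scale, a difference between 2 lines with no replicate. The mean log2 level of the 15 neuronal markers was 8.91 and 9.10 in the 2 ESC samples, above the otospheres. Over the 3 groups, 8 of the 9 main probes passed the F-test, all but Barhl1, and 33.8% of all probes did.

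**Figure D3:**
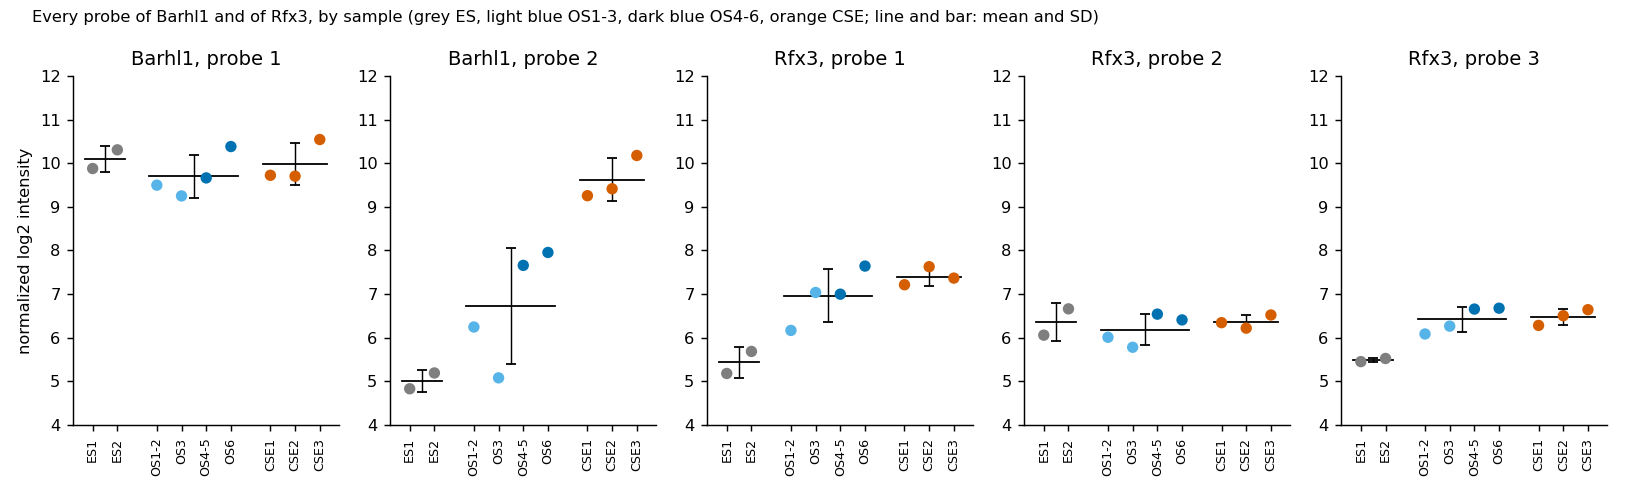
Normalized log2 intensity (y axis) of the 2 probes of Barhl1 and the 3 probes of Rfx3 in the 9 samples (x axis), with group means as lines and SDs as bars. Probe 1 of Barhl1 stays between 9.25 and 10.54 in all samples while probe 2 runs from 4.83 in ES1 to 10.18 in CSE3, and probe 2 of Rfx3 does not set the ESCs apart as probes 1 and 3 do.

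The otosphere samples did not form 1 level. OS4-6 were higher than OS1-3 in 8 of the 9 genes, and in 6 of them both samples of the second slide were above both of the first, as were 27.8% of all probes. The median log2 difference over the members was 1.23, against 0.05 over all kept probes. The split into OS1-3 and OS4-6 was taken up with the levels of Atoh1, Pou4f3, Myo7a and Pvalb on these arrays known. The study had named these genes as raised in OS4-6, so the values given here are a description. Gfi1 differed most, by 2.49 on the log2 scale (SE 0.36), followed by Atoh1 at 1.82 (SE 0.34), Pou4f3 at 1.78 (SE 0.38) and Lhx3 at 1.60 (SE 0.34). Probe 2 of Barhl1 differed by 2.14 (SE 0.43). Insm1 at 1.23, Rfx3 at 0.72, Barhl1 at 0.65 and Ikzf2 at 0.33 had 95% intervals that included 0, and so did Hes6 at -0.08. These are main probes, and the intervals of probe 2 of Ikzf2 (0.61) and of probes 2 and 3 of Rfx3 (0.58 and 0.49) lay above 0.

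None of the 9 passed limma's adjustment in this contrast, where Gfi1 was nearest (adjusted p = 0.0562) and Atoh1 next (adjusted p = 0.0768). Gfi1 passed without OS1-2 (adjusted p = 0.0182) or without OS4-5 (adjusted p = 0.0372), where the lone sample of a slide is assumed to vary like the other groups. Without adjustment 4 of the 9 were higher at p under 0.05, against 6.55% of all probes, and with adjustment 0.05% of all probes were higher. Atoh1 and Pou4f3, whose levels were known when the split was taken up, are among the 4, so the count is only a description.

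Slide and preparation cannot be told apart for the otospheres. The second slide held 1 CSE sample, so they cannot be told apart for the CSE either. CSE3 differed from the mean of CSE1 and CSE2 by 0.02 for Atoh1, 0.56 for Pou4f3, 0.40 for Gfi1 and 0.31 for Lhx3 on the log2 scale. For Barhl1 it differed by 0.83 with probe 1 and 0.84 with probe 2. The difference between OS4-6 and OS1-3 minus that between CSE3 and the other CSE samples was 2.09 for Gfi1 (SE 0.58) and 1.81 for Atoh1 (SE 0.60), and neither passed (adjusted p = 0.791 and 0.796 by limma). No probe on the array passed this interaction, and 6.07% had an unadjusted p under 0.05, Gfi1 and Atoh1 among them.

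**Figure D4:**
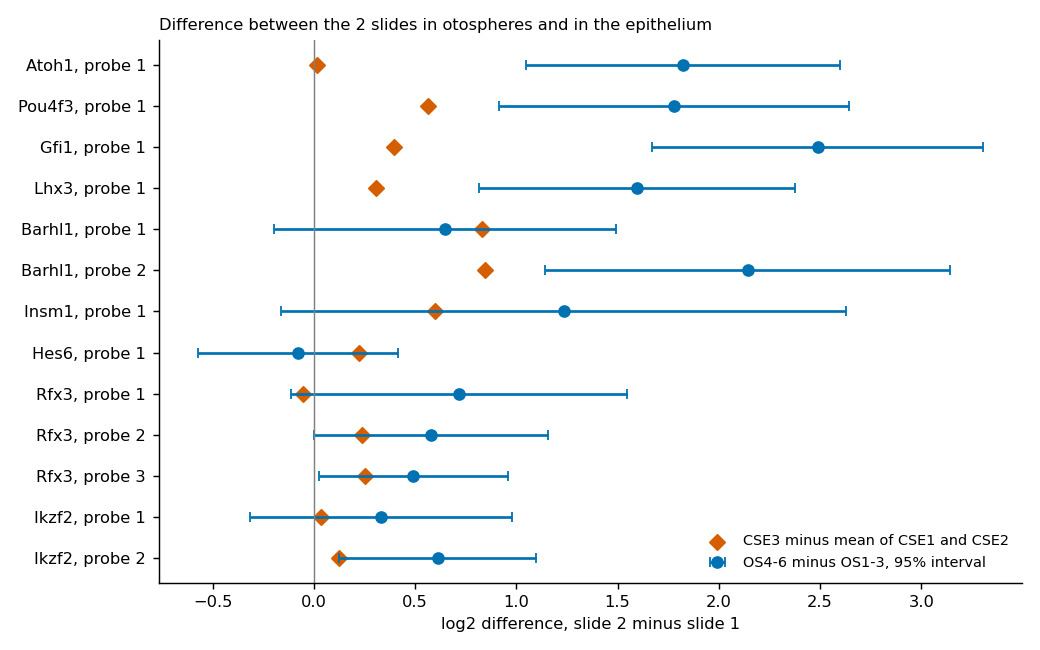
Log2 difference between the slides (x axis) for the 13 probes (y axis), in otospheres as OS4-6 minus OS1-3 with the 95% interval of the fit (blue circles), and in the CSE as CSE3 minus the mean of CSE1 and CSE2 (orange diamonds, 1 sample against 2). For Atoh1, Pou4f3, Gfi1, Lhx3 and probe 2 of Barhl1 the otosphere interval lies above 0, and for Hes6 the otosphere value is -0.08.

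The genes that act before and after these factors were read from lists of fixed symbols, counted by 1 main probe a gene. Of 18553 named genes tested, 1908 were lower and 1331 higher in otospheres than in the CSE, with a median log2 difference of -0.01. Among 19 regulators of Atoh1, 12 were lower and none higher, with a median of -1.74. The falls were led by Hes5 (-7.37, SE 0.38), Heyl (-3.73, SE 0.30) and Hey1 (-3.12, SE 0.23), all Notch target repressors. Hes1, a repressor of the same family, did not fall, at 0.71 (SE 0.33), and did not pass (limma, adjusted p = 0.255). Id1 at -3.04 (SE 0.39), Id3 at -2.90 (SE 0.67) and Id2 at -2.51 (SE 0.36), which encode inhibitors of basic helix-loop-helix factors, fell as well, as did Sox2 at -2.76 (SE 0.27) and Gata3 at -2.10 (SE 0.34), which promote prosensory fate. Over the 19 regulators the median of OS4-6 minus OS1-3 was -0.20.

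Hair cell effector genes were lower in 16 of 34 cases and higher in 2, with a median log2 difference of -1.26 from the CSE. Pvalb, a calcium buffer, fell by 3.79, Rasd2, a small GTPase, by 3.54 and Ush1c, a scaffold of the hair bundle, by 3.54. Ocm, the calcium buffer of outer hair cells, rose by 3.40 (SE 0.56) and Anxa4, a membrane-binding annexin, by 1.12 (SE 0.18). Between the slides, in 30 of 34 the otospheres of OS4-6 were higher, 27 without overlap, with a median of 1.29. Myo7a and Pvalb, which the study had named as raised in OS4-6, are on this list, so these counts are a description. Of all 18553 named genes 10512 were higher in OS4-6, and 27.8% of all probes were higher without overlap. The mean log2 level of the list was 8.002 in OS1-2, 7.57 in OS3, 8.80 in OS4-5 and 8.95 in OS6, against 9.42 to 9.79 in the CSE and 6.99 to 7.24 in the ESCs. OS3 was lowest for this list, as it was for Atoh1, Pou4f3, Gfi1, Lhx3 and Insm1. Cdh23, of the tip links, had no otosphere array well above background.

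Of 16 measured paralogs of the members, 3 were lower and none higher, with a median of -0.06. The 3 were Pou4f2 (-3.08, SE 0.54) and Pou4f1 (-1.52, SE 0.35), both known from sensory neurons, and Ikzf4 (-1.27, SE 0.21), which like Ikzf2 belongs to the Ikaros family. Atoh7 had no array well above background in otospheres or CSE. The difference between the paralogs and the members was not tested.

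Markers of other cells were read in the same way. Of 13 supporting cell markers, 7 were lower in otospheres and none higher, with a median of -1.77, a mean log2 level of 9.02 to 9.48 in otospheres and 11.07 to 11.36 in the CSE, and Hes5, Fgfr3 (-3.91, SE 0.29) and Sox2 as the largest falls. For Prox1, which also acts on Atoh1, no otosphere array was well above background. Among the 15 neuronal markers, with a median of -3.49, the largest falls were Stmn2 (-7.69, SE 0.29), Nefh (-5.83, SE 0.42) and Nefl (-5.48, SE 0.56). Motile cilia genes, some of which Rfx factors control in other tissues, were lower in 2 of 11 (Tekt1 at -3.54 and Ccdc39 at -1.07) and higher in 1 (Dnah5 at 1.04). Of 11 lymphoid and myeloid markers, where Ikaros family genes are also active, Csf1r fell by 1.20 and Cd14 rose by 5.50, and their mean log2 level was 7.90 to 8.32 in otospheres and 7.90 to 8.06 in the CSE. Of 6 pluripotency markers 1 was lower, Esrrb (-3.52, SE 0.55), and the median was 0.05. The part of these cells in the members' values was not tested.

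**Figure D5:**
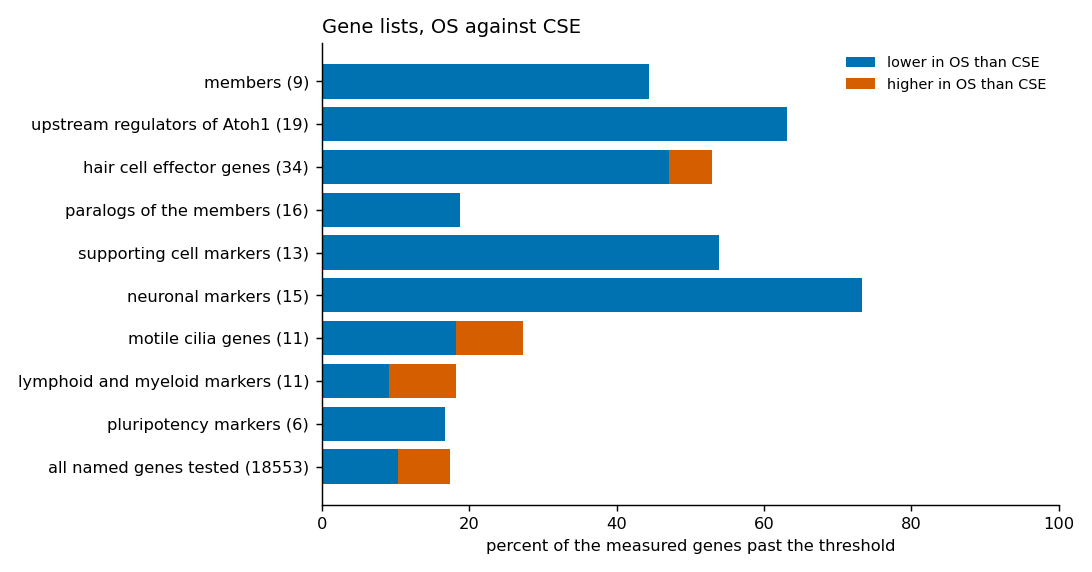
Percent of the measured genes of each list (x axis) that were lower (blue) or higher (orange) in otospheres than in the CSE at an adjusted p under 0.05, with the number of measured genes in brackets and all named genes as the last bar. The neuronal markers (11 of 15) and the regulators of Atoh1 (12 of 19) have the longest bars, and 4 of the 9 members are lower.

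Genes with the pattern nearest to Atoh1 and Pou4f3 over the 9 samples were picked by Pearson correlation from 18552 other named genes, as a description, since the samples fall into 3 groups that set most of each r. Nearest to Atoh1 were Nfe2 (r = 0.991), Rbm24 (0.988), Ttyh1 (0.988), Grxcr1 (0.987) and Ly6h (0.986). Nearest to Pou4f3 were Plch2 (r = 0.993), Otof (0.992), Gm1987 (0.991), Lhfpl5 (0.991) and Fscn2 (0.990). Among the members, Lhx3 was nearest to both, at r = 0.982 with Atoh1 and 0.992 with Pou4f3, while Insm1 was at 0.08 and -0.01 and probe 1 of Barhl1 at 0.307 and 0.344.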

How the data were processed

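RNA of otospheres, CSE and ESCs was measured on 11 single-colour arrays. The authors deposited scanner files that list, per spot, a median signal intensity and a median local background (linear scale, Feature Extraction 10.7.3.1 per the file headers) and a processed intensity. They also deposited a table of log2 values after background correction, quantile normalization and filtering of dim probes, which served as an alternative here. Each sample's group was taken from its title.

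Median intensities were background-corrected (normexp, offset 16), converted to log2 and quantile-normalized with limma 3.58.1 in R 4.3.3. Control and outlier spots were left out and spots of a probe averaged. A probe had to exceed the 95th percentile of 308 negative controls by 10% or more on at least 2 arrays (47997 of 55681 probes did). The study's methods ask for 3 arrays, which was an alternative. RefSeq transcript accessions named 26762 probes. A limma model of the 3 groups gave contrasts and F-tests (empirical Bayes, Benjamini-Hochberg over the kept probes, threshold 0.05), and a model with otospheres split by slide gave OS4-6 minus OS1-3. Bright probes, used to compare arrays, had a mean log2 level above 9. The number of arrays limits the precision. The fits were tested on simulated data.

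The 9 members are named by their brightest probe. Of each list, up to 3 largest rises and 3 largest falls past the threshold are named. A few others (Myo7a, Cdh23, Elavl3, Neurod1, Prox1, Atoh7, Pou5f1, Nanog, Gata3, Hes1, Sox2 among the regulators, Id1, Id2, Id3) were named after their values were seen. The members and lists were chosen with earlier results of these data known. Pou4f3, Insm1 and Ikzf2 have no promoter shown, and those of Barhl1 and Rfx3 were not used here. Alternatives were the offset, scaling of the processed intensity to its 75th percentile, the deposited log2 table, the filter, slide or replicate number as a block, every array as a sample, the second brightest probe, the methods' one-way test, and each sample left out in turn.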

Additional observations from a re-analysis of the deposited data

How the results depend on the processing

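Of 693 alternative values for single members, 643 gave the same call as reported, 22 lost significance, 26 gained it and 2 turned. The 2 that turned came with the second brightest probe, which gave -0.18 for Rfx3 in otospheres minus ESCs and 4.603 for Barhl1 in CSE minus ESCs. The cause was not tested. Atoh1 stayed lower in otospheres than in the CSE under all 21 alternatives, from -4.27 to -2.23, with adjusted p up to 0.0344.

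The count of members lower in otospheres than in the CSE was 4. It was 3 with an offset of 50, where Insm1 was lost, and 2 with the processed signal scaled to the 75th percentile, where Insm1 and Hes6 were lost. Leaving out 1 sample gave 2 to 6, with 2 without OS1-2 or without any 1 of the CSE samples and 6 without OS6. It was 6 for OS1-3 alone and 4 for OS4-6 alone against the CSE, a choice made after the data were seen. The count that differed between otospheres and ESCs was 4, and leaving out 1 sample gave 2, without ES1, to 6, without OS3. The median of OS4-6 minus OS1-3 was 1.23, and it was 0.83 with an offset of 50, 1.64 with an offset of 0, 1.58 with the scaled processed signal, 1.66 with the authors' log2 table, 1.60 with the second brightest probe and 0.77 after subtraction of CSE3 minus the mean of CSE1 and CSE2. Leaving out 1 sample gave 1.15 to 1.62.

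Replicate numbers only name the arrays. Arrays of the same number in otospheres and CSE had correlated deviations of 0.36, -0.34 and -0.39. A replicate block, with every array as a separate sample, gave 6 members lower in otospheres than in CSE, 3 that differed between otospheres and ESCs, 6 higher in CSE than in ESCs and 8 that differed among the groups. All groups are small, and Atoh1, Gfi1 and Rfx3 were near background in ESCs, where fitted differences depend on the offset.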
